A study of Rattus norvegicus with 12 samples.

Results

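The integrated stress response and the unfolded protein response of the endoplasmic reticulum (ER) were followed through 38 genes in rat kidney cortex after dosing with bromodichloromethane (BDCM), a disinfection by-product of chlorinated water. The genes were taken as a named list, and every array probe whose RefSeq accession belonged to one of them was used. Probes were found for 36 of the 38 genes, out of 15284 named genes with a probe on the array. Manf and Edem1 had no such probe and were not analysed here. The 36 genes were covered by 60 probes, and 19 of them had several. They fall into 4 groups by role: 15 ATF4-type genes (transcription factors of the integrated stress response and genes that ATF4 or its partners are known to drive), 13 ER chaperones and folding enzymes, 6 genes of ER-associated degradation, and 4 stress sensors and their effector Xbp1.

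RNA of renal cortex was measured on Agilent 1-colour arrays in 12 male Sprague-Dawley rats, stock Crl:CD(SD), bought at 5 weeks of age. The 4 groups held 3 biological replicates each: BDCM at 200 mg/kg per day for 4 weeks with death under CO2-O2 (experiment B92), corn oil for 4 weeks with death under CO2-O2 (B92), BDCM at the same dose and duration with death under isoflurane (B103), and corn oil with death under isoflurane (B103). The labels name no genetic change, and all animals were killed 24 h after their last dose. Anaesthesia and experiment change together, so they cannot be told apart.

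In the integrated stress response, kinases that sense different stresses phosphorylate the translation factor eIF2, which lowers general protein synthesis while the messenger RNA of the transcription factor ATF4 is translated more. ATF4 then drives genes of amino acid supply, redox balance and feedback control. In the unfolded protein response, 3 sensors in the ER membrane (ATF6, IRE1 and PERK, encoded by Atf6, Ern1 and Eif2ak3) respond to misfolded protein. ATF6 and the spliced form of XBP1 raise chaperones and degradation factors, and PERK feeds into ATF4. The proximal tubule cells of the renal cortex metabolise many xenobiotics and carry heavy protein and solute traffic.

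Depth on these arrays is given by signal over background: 67.4 to 72.5% of probes per array were well above background, and 0 to 6 spots were saturated. Levels are log2 of the processed signal minus the array's 75th percentile, called normalized log2 signal, so 0 is the brightness of that percentile and levels of different probes are not set against each other. Of 9 proximal tubule markers, 9 were well above background in every group, and 8 were lower in BDCM animals in the mean effect of both experiments (median log2 difference -0.64), against 20.4% of all features. Of 5 glomerular markers 4 were lower (median -0.43), and of 8 tested distal nephron markers 3 were lower and 1 was higher (median -0.19). In bulk cortex, fewer cells of a type and less RNA per cell cannot be told apart. Of 10 leukocyte markers, 0 were higher and 1 was lower. The part of these marker changes in the results was not tested. The arrays lay on 5 slides and were scanned on 4 days, and treatment was unevenly spread over them. Slide 1 held 1 BDCM and 3 oil arrays of the CO2-O2 experiment, and slide 4 held 2 BDCM arrays and 1 oil array of the isoflurane experiment.

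Published motifs of these pathways were looked for in the promoters that RefSeq gives for assembly GRCr8, 250 bases before to 50 bases after a transcription start, on both strands. Promoters were held for 31 of the 38 genes. The genes without one were Atf3, Pdia3, Pdia6, Manf, Derl1, Atf6 and Ern1. The motifs were the C/EBP-ATF response element TGATGNAA, the ER stress element ERSE (CCAAT and CCACG with 9 unspecified bases between them) and its variant ERSE-II (ATTGG and CCACG with 1 unspecified base between them), the element TGACGTGG (UPRE) and the cyclic AMP element TGACGTCA (CRE). Each ERSE and ERSE-II also holds the letters CCAAT.

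Upstream sequences are shown because they hold these motifs upstream of the genes that the results turn on. They are printed 5′ to 3′ on the gene's strand, with the motif in capitals (on the other strand, its reverse complement). First come 3 ATF4-type genes with the C/EBP-ATF response element.
Trib3 (GRCr8 chr3:161275534-161275783, minus strand): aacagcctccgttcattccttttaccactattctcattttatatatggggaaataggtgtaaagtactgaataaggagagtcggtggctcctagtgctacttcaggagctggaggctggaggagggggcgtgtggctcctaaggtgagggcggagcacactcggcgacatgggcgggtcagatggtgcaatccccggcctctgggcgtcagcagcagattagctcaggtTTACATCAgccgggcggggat
Fgf21 (GRCr8 chr1:105221500-105221531, minus strand): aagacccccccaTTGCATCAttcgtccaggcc
Nupr1 (GRCr8 chr1:190645937-190645968, minus strand): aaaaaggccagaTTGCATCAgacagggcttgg
Chac1, another ATF4-type gene, is shown with its whole upstream stretch because its probes disagreed (described with the ATF4-type genes), and Jdp2 because it holds the same element and did not pass the test.
Chac1 (GRCr8 chr3:126795881-126796130, plus strand): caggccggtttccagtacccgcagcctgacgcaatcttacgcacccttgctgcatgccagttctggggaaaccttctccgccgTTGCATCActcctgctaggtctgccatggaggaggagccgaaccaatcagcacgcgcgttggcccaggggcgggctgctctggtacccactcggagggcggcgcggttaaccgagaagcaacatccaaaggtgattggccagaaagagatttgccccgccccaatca
Jdp2 (GRCr8 chr6:110993563-110993590, plus strand): tatagccggggcTGATGCAAcccgtccc
For the ER side, ERSE stood in the stretch before Hspa5, Hsp90b1, Creld2, Derl3 and Xbp1. Hsp90b1 held it on each strand at different places.
Hspa5 (GRCr8 chr3:38452766-38453015, plus strand): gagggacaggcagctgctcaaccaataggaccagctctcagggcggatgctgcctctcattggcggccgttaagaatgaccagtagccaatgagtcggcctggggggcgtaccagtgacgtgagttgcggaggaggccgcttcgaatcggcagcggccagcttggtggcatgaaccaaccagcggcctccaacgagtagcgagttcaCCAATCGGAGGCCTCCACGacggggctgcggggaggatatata
Hsp90b1 (GRCr8 chr7:23012335-23012481, minus strand): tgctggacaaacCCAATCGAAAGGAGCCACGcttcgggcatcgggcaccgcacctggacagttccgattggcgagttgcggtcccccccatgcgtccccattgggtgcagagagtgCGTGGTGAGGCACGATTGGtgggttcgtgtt
Creld2 (GRCr8 chr7:121789227-121789269, plus strand): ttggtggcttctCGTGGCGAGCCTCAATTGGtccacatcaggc
Derl3 (GRCr8 chr20:12766466-12766715, minus strand): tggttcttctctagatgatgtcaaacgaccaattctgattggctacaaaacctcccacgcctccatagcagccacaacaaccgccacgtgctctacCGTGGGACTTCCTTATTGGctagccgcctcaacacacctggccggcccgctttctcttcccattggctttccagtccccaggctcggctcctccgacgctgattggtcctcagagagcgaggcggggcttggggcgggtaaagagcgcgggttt
Xbp1 (GRCr8 chr14:84604546-84604588, plus strand): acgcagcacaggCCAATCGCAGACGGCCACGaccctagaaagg
Herpud1 held the C/EBP-ATF response element and, nearer to the start, ERSE-II.
Herpud1 (GRCr8 chr19:10614708-10614957, minus strand): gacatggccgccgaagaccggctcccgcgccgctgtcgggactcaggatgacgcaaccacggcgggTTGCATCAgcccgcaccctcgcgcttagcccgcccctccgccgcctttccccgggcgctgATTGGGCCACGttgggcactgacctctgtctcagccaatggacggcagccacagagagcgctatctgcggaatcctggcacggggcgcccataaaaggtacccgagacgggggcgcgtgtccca
The stretches of Herpud1, Jdp2 and Creld2, and the last bases of that of Derl3, lie inside the gene's span in the RefSeq table, before the transcription start that the promoter was taken from.

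The C/EBP-ATF response element was found in 5 of the 14 ATF4-type genes with a promoter (Chac1, Fgf21, Jdp2, Nupr1 and Trib3), in 0 of 10 chaperones and in Herpud1, and in 3.98% of all 33469 RefSeq promoters. ERSE was found in 5 of 10 chaperones (Calr, Canx, Creld2, Hsp90b1 and Hspa5), in Derl3 and in Xbp1, in 0 of 14 ATF4-type genes, and in 0.0657% of all promoters, which came to 21 genes. ERSE-II was found in Dnajb11, Hyou1 and Herpud1, and in 0.0508% of promoters. UPRE was found in Hyou1, where it overlaps an ERSE-II, and CRE in Ppp1r15a. Over all promoters UPRE stood in 0.595% and CRE in 1.83%. The 5 bases CCAAT stood in 10 of 10 chaperones, in 5 of 14 ATF4-type genes and in 37.5% of all promoters. They also stood in 5 of 5 genes of ER-associated degradation with a promoter, Herpud1 among them. The same bases stood in 2 of 2 sensor and effector genes with a promoter, Eif2ak3 and Xbp1. A match is a description of the letters in this window only.

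After BDCM, most ATF4-type genes and all measured ER chaperones were higher. In the mean effect of both experiments, 24 of the 36 genes rose, 3 fell (Ddit4, Herpud1 and Xbp1) and 9 did not pass the test (limma, adjusted p under 0.05 over 34218 features). Over all features 17.7% passed as higher and 20.4% as lower. The median log2 difference was 0.48 over the 36 genes and -0.04 over all features. Among ATF4-type genes 11 of 15 rose and 1 fell, with a median of 0.94 and a range from -0.83 to 4.44. Among chaperones 12 of the 12 measured rose, with a median of 0.59 and a range from 0.37 to 1.62. The difference between the 2 medians was not tested. With only probes well above background on all 12 arrays, which drops Fgf21 and Stc2, the ATF4-type and chaperone medians were 0.63 and 0.59 in the mean effect, and under CO2-O2 their order turned (0.52 and 0.69). The counts hold Stc2, which passed the filter on background only through its BDCM groups, so it had to differ. Of the 5 measured genes of ER-associated degradation, Derl3 rose, Herpud1 fell and 3 did not pass, with a median of 0.16. Of the 4 sensors and effector, Xbp1 fell and 3 did not pass, with a median of -0.01. With a change of at least 2-fold also required, 11 of the 36 genes were higher and 0 were lower, against 3.12% and 2.2% of all features.

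**Figure D1:**
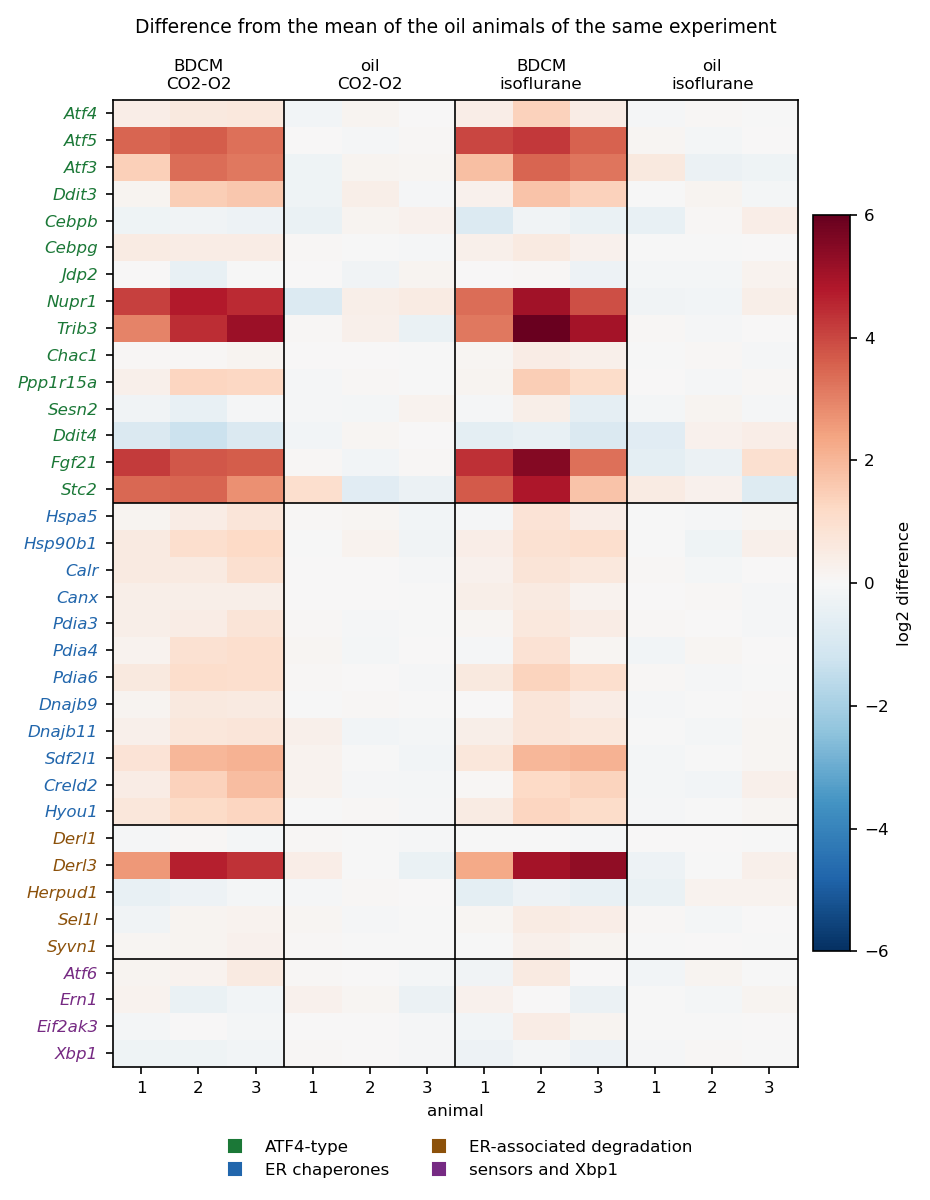
Log2 difference of each animal (columns, BDCM and oil animals 1 to 3 of each experiment) from the mean of the oil animals of its experiment, for the 36 measured genes (rows, name colour by role). Atf5, Atf3, Nupr1, Trib3, Fgf21, Stc2 and Derl3 form the darkest rows, and BDCM animal 1 of each experiment is paler than BDCM animals 2 and 3 in Atf3, Ddit3, Trib3, Ppp1r15a, Sdf2l1, Creld2 and Derl3.

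Taken per experiment, 17 genes rose and Ddit4 fell under CO2-O2, where 19.9% of all features passed, 10% as higher and 9.89% as lower. Without CO2-O2 oil animal 3 the count was 10 genes (6.8% of all features higher), and without CO2-O2 BDCM animal 3 it was 11 (7.1%). The fall of Ddit4 did not pass without CO2-O2 oil animal 2 or 3 or CO2-O2 BDCM animal 2 (adjusted p = 0.0609 to 0.0671). Under isoflurane 17 genes rose and Xbp1 fell, where 26.1% of features passed, 13.2% as higher and 12.9% as lower. Both experiments called 15 genes higher: the ATF4-type genes Atf5, Atf3, Cebpg, Nupr1, Trib3, Fgf21 and Stc2, the chaperones Hsp90b1, Calr, Canx, Pdia6, Dnajb11, Sdf2l1 and Hyou1, and Derl3. Single animals ended calls of Hsp90b1, Calr, Canx, Dnajb11 and Sdf2l1, as given with the chaperones. Over all features 8.58% were called higher in both. All 3 BDCM animals lay above all 3 oil animals in both experiments for 19 genes (10 ATF4-type, 8 chaperones and Derl3), against 13.5% of all features, and below them for Xbp1, against 13.1%. The counts of 17, 15 and 19 genes hold Stc2, which was tested only through its BDCM groups and had to differ. The same limit holds for its calls with slide as a fixed block. The difference between the effects of the 2 experiments passed for 0 of the 36 genes and 0 of 34218 features in limma, where 1731 features (5.06%) had an unadjusted p under 0.05. For the 36 genes that difference ran from -0.41 to 0.56 on the log2 scale, with a lowest unadjusted p of 0.0808 and a lowest adjusted p of 0.935.

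**Figure D2:**
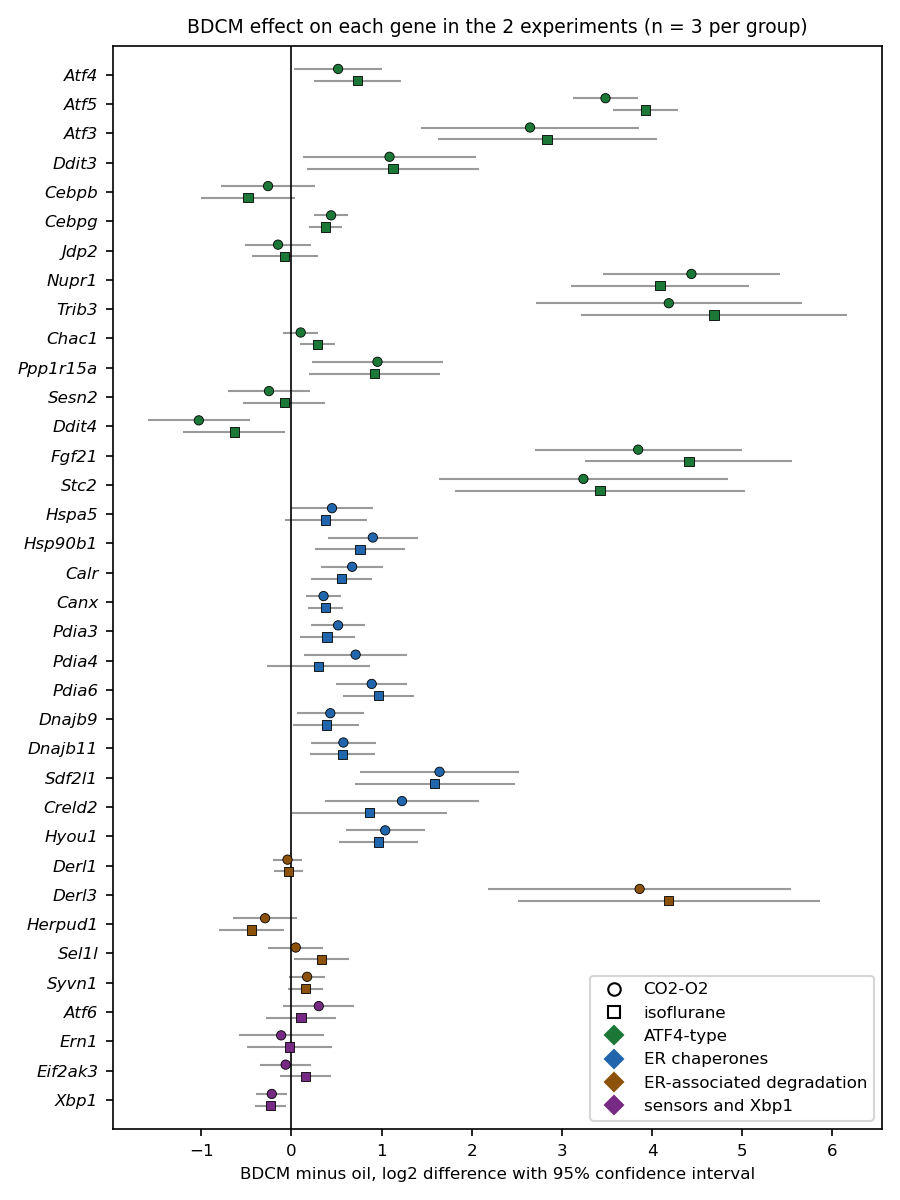
BDCM minus oil (log2, x axis) for each measured gene (y axis) with its 95% confidence interval from the limma fit, circles for CO2-O2 and squares for isoflurane, coloured by role. The 12 chaperones lie between 0.30 and 1.64, while ATF4-type genes run from -1.03 to 4.69, and the circle and square of each gene lie within 0.56 of each other.

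With slide as a fixed block, which leaves the comparison within slide 1 (1 BDCM against 3 oil animals) and within slide 4 (2 BDCM against 1 oil animal), the median of the ATF4-type genes was 1.30 within the CO2-O2 slide and 0.90 within the isoflurane slide. The chaperone median was 0.80 within the CO2-O2 slide and 0.43 within the isoflurane slide. All 27 genes called in the mean effect kept their direction, and 13 of them still passed, where 24.3% of all features did. Per experiment, 6 genes passed under CO2-O2 (Atf5, Atf3, Nupr1, Fgf21, Stc2 and Derl3; 9.26% of features) and 5 under isoflurane (Atf5, Nupr1, Fgf21, Stc2 and Canx; 7.93%), and the other calls per experiment were lost.

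The transcription factors of the ATF4-type group separated into strong, moderate and unchanged signals. Atf5, a factor whose messenger RNA is translated in the same stress-dependent way as that of Atf4, had normalized log2 signals of 3.41, 3.55 and 3.25 in BDCM animals and -0.06, -0.15 and -0.03 in oil animals under CO2-O2. Under isoflurane Atf5 had 3.75, 4.02 and 3.28 in BDCM animals and -0.14, -0.36 and -0.25 in oil animals. The groups were far apart for the spread within them. The fold was 11.2 (95% interval 8.70 to 14.4) under CO2-O2 and 15.2 (11.9 to 19.6) under isoflurane, with adjusted p of 7.82e-06 and 3.14e-06.

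Atf4 itself was less changed. It had 5.02, 5.20 and 5.25 in BDCM animals and 4.48, 4.80 and 4.65 in oil animals under CO2-O2, and 4.79, 5.76 and 4.84 in BDCM animals and 4.35, 4.48 and 4.37 in oil animals under isoflurane. All BDCM animals were above all oil animals in each experiment, with isoflurane BDCM animal 2 the highest. The mean effect was 0.63 ± 0.15 (SE; adjusted p = 0.00976), while the CO2-O2 effect alone was 0.52 ± 0.22 (adjusted p = 0.126) and the isoflurane effect 0.73 ± 0.22 (adjusted p = 0.0332). Leaving out any isoflurane oil animal ended the isoflurane call (adjusted p = 0.0665 to 0.0874), and without isoflurane BDCM animal 2 the CO2-O2 effect passed (adjusted p = 0.00573). With slide as a fixed block the mean effect had an adjusted p of 0.0692.

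Atf3, a factor induced by many stresses, had 0.70, 2.62 and 2.42 in BDCM animals and -0.99, -0.57 and -0.64 in oil animals under CO2-O2. Under isoflurane it had 0.82, 2.49 and 2.25 in BDCM animals and -0.39, -1.32 and -1.24 in oil animals. BDCM animal 1 was the lowest of its group in each experiment, yet above every oil animal. The effects were 2.65 ± 0.55 under CO2-O2 and 2.84 ± 0.55 under isoflurane (SE; adjusted p = 0.00843 and 0.00445). Without BDCM animal 1 the CO2-O2 effect was 3.25, and with slide as a fixed block it was 3.36.

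Ddit3, which encodes the pro-apoptotic factor CHOP, had 3.11, 4.45 and 4.58 in BDCM animals and 2.69, 3.30 and 2.88 in oil animals under CO2-O2. Under isoflurane it had 3.03, 4.50 and 4.18 in BDCM animals and 2.74, 2.92 and 2.67 in oil animals. Under CO2-O2 BDCM animal 1 lay within the range of the oil animals, and the groups overlapped. The mean effect of 1.11 ± 0.30 passed (adjusted p = 0.0159), and neither experiment alone did (adjusted p = 0.104 under CO2-O2 and 0.0799 under isoflurane). Without its own BDCM animal 1 each experiment passed (adjusted p = 0.0175 under CO2-O2 and 0.0179 under isoflurane). With slide as a fixed block the mean effect had an adjusted p of 0.098.

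The C/EBP family partners of ATF4 were little changed or not called. Cebpg had 1.51, 1.46 and 1.46 in BDCM animals and 1.10, 1.03 and 0.97 in oil animals under CO2-O2, and 1.37, 1.61 and 1.33 in BDCM animals and 1.05, 1.03 and 1.09 in oil animals under isoflurane. Small as the change was, the groups did not overlap, and the mean effect of 0.41 ± 0.06 had an adjusted p of 0.000465. Cebpb averaged 2.31 ± 0.04 in BDCM and 2.57 ± 0.35 in oil animals under CO2-O2, and 1.93 ± 0.30 in BDCM and 2.41 ± 0.43 in oil animals under isoflurane (SD, n = 3 each), and did not pass (mean effect -0.37, adjusted p = 0.108). Jdp2, a related factor that can repress transcription, had a mean effect of -0.11 ± 0.12 (SE; adjusted p = 0.486).

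Trib3 and Nupr1 were among the most changed of the stress effectors. Trib3, a pseudokinase that binds ATF4 and CHOP and feeds back on them, had -1.17, 0.28 and 0.96 in BDCM animals and -4.08, -3.87 and -4.54 in oil animals under CO2-O2. Under isoflurane Trib3 had -1.03, 1.76 and 0.81 in BDCM animals and -4.12, -4.26 and -4.15 in oil animals. Every BDCM animal stood well above the oil animals, and BDCM animal 1 was the lowest in each experiment, 1.79 below the mean of the other 2 under CO2-O2 and 2.31 below it under isoflurane. The fold was 18.2 (95% interval 6.55 to 50.6) under CO2-O2 and 25.8 (9.27 to 71.6) under isoflurane, with adjusted p of 0.00203 and 0.000743. With slide as a fixed block neither passed (adjusted p = 0.0524 under CO2-O2 and 0.0635 under isoflurane). With normexp background correction the log2 effects were 3.36 under CO2-O2 and 3.78 under isoflurane, against 4.19 and 4.69. Without BDCM animal 1 they were 4.78 under CO2-O2 and 5.46 under isoflurane, and without BDCM animal 2 the isoflurane effect was 4.06.

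Nupr1, a small chromatin-associated stress protein, had 3.66, 4.29 and 4.01 in BDCM animals and -1.29, -0.11 and 0.06 in oil animals under CO2-O2. Under isoflurane Nupr1 had 3.27, 4.93 and 3.78 in BDCM animals and -0.30, -0.26 and 0.28 in oil animals. The groups did not overlap, and the widest spread in the oil animals came from CO2-O2 oil animal 1. The fold was 21.6 (95% interval 10.9 to 42.8) under CO2-O2 and 17.0 (8.60 to 33.6) under isoflurane.

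**Figure D3:**
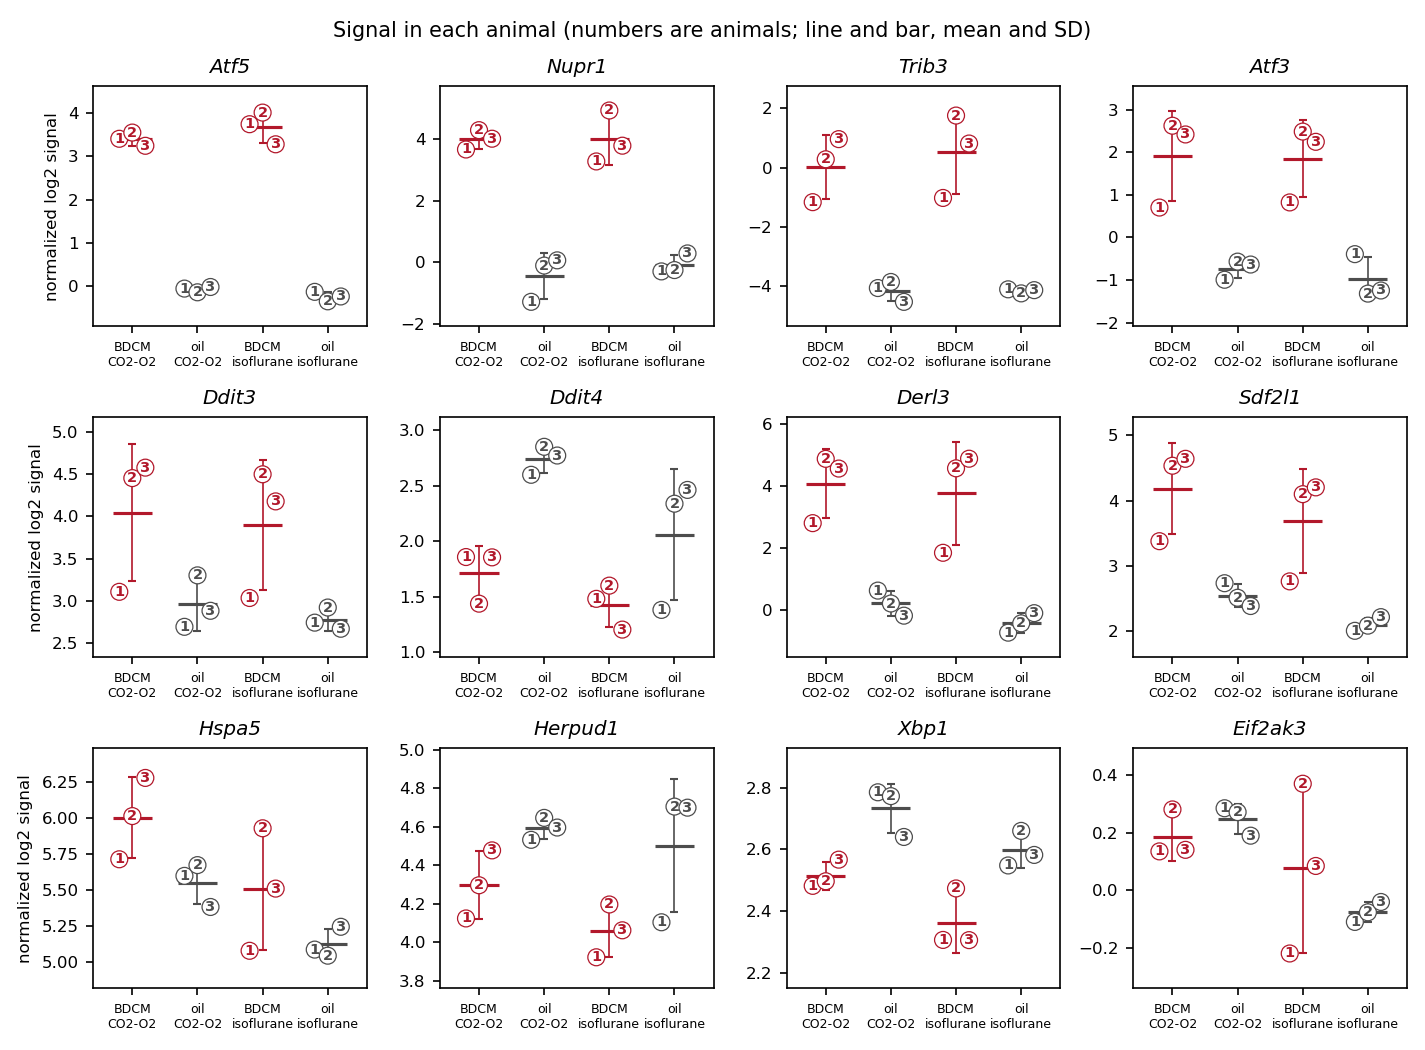
Normalized log2 signal (y axis) of 12 genes in each animal (numbers 1 to 3) of the 4 groups (x axis), BDCM in red and oil in grey, with group mean and SD. The vertical scale differs between panels. BDCM animal 1 of each experiment is the lowest BDCM animal in Trib3, Atf3, Ddit3, Derl3, Sdf2l1 and Hspa5, and not in Atf5.

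Chac1, which breaks down glutathione, had 3 probes of the same RefSeq accession that disagreed. Its brightest probe, A_64_P112406, had -1.02, -1.0 and -0.91 in BDCM animals and -1.08, -1.06 and -1.10 in oil animals under CO2-O2, and -0.88, -0.56 and -0.71 in BDCM animals and -1.03, -0.92 and -1.06 in oil animals under isoflurane. Those signals barely moved, with a mean effect of 0.20 ± 0.06 (SE; adjusted p = 0.0296), and 13 of 27 alternatives took that call away. Among them were leaving out CO2-O2 oil animal 1, 2 or 3, CO2-O2 BDCM animal 3, isoflurane oil animal 1 or 3, and isoflurane BDCM animal 2 or 3 (adjusted p = 0.0523 to 0.0659). As the mean of its probes Chac1 had an effect of 2.83 (adjusted p = 7.12e-06). That mean takes in 1 probe well above background on no oil array and 1 well above it on only some. Its size thus rests on dim oil signals.

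Probe A_44_P776556 gave another picture of Chac1, with -1.66, -1.15 and -1.10 in BDCM animals and -5.80, -6.45 and -5.63 in oil animals under CO2-O2, and -1.36, 0.33 and -1.63 in BDCM animals and -5.81, -6.26 and -5.64 in oil animals under isoflurane. BDCM and oil animals were far apart on it. In the fit of all probes the mean effect was 4.84 ± 0.32 (SE; adjusted p = 2.73e-06), with 2 of 3 oil arrays well above background under CO2-O2 and 1 of 3 under isoflurane. Since this probe was kept only through the BDCM groups where it is high, that p-value is no support for the difference. With oil signals raised to the background floor of their arrays, the isoflurane difference was 4.84 against a measured 5.01. The third probe of Chac1, A_43_P17471, was not well above background on any oil array and gave a signal at least 2.48-fold higher in BDCM animals under CO2-O2 and at least 2.28-fold higher under isoflurane. Without isoflurane BDCM animal 2 the isoflurane bound was 1.38-fold. Which probe follows the Chac1 transcript was not tested.

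For the other genes with several probes the sign of the mean effect was shared by their probes in all but Derl1, whose probes gave small effects of opposite sign. In the probe fit 37 of the 60 probes were higher and 6 were lower, against 17.9% and 20.4% of 43275 probes. By role, 16 of 24 ATF4-type probes and 19 of 19 chaperone probes were higher. The ATF4-type count holds the Stc2 probe and Chac1 probes A_44_P776556 and A_43_P17471. These were kept only through the BDCM groups where they are high, so their calls are no support.

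**Figure D4:**
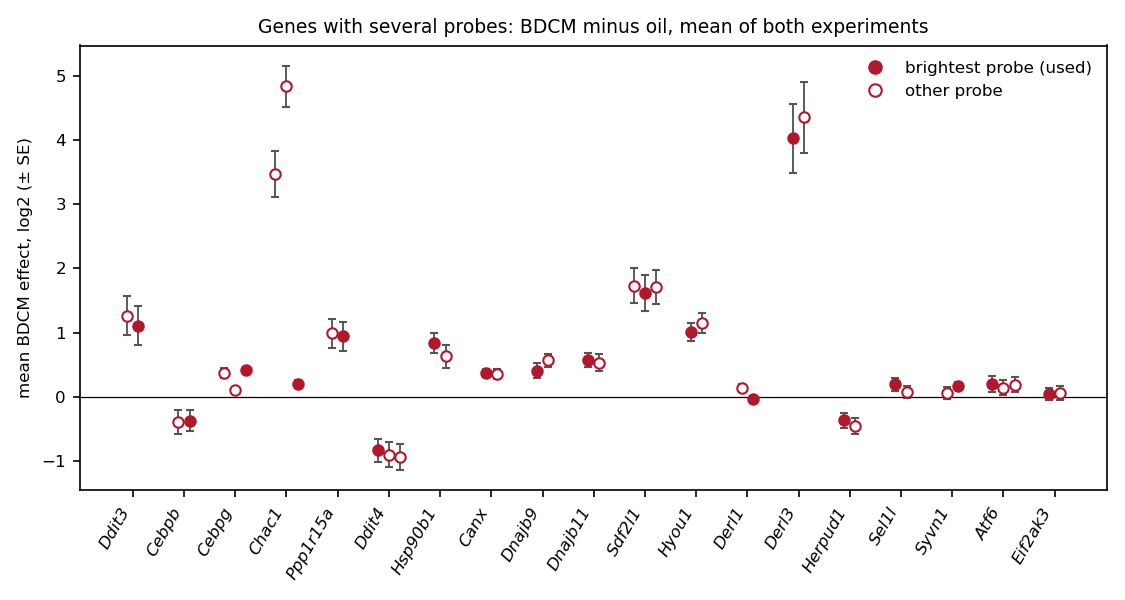
Mean BDCM effect of both experiments (log2, y axis, bars are SE) for every probe of the 19 genes with several probes (x axis), filled for the brightest probe, which stands for the gene. The filled Chac1 point lies at 0.20 and its open points at 3.46 (measured signals, with no oil array above background) and 4.84, while probes of Sdf2l1, Derl3, Ddit4 and Herpud1 lie close together.

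The secreted factors Fgf21 and Stc2 were dim in oil animals. Fgf21, a hormone of fasting and stress known chiefly from liver, had -1.17, -1.66 and -1.77 in BDCM animals and -5.30, -5.54 and -5.31 in oil animals under CO2-O2. Under isoflurane Fgf21 had -1.79, -0.70 and -2.87 in BDCM animals and -6.80, -6.55 and -5.23 in oil animals, of which 1 of 3 was well above background. No oil animal came near a BDCM animal. The CO2-O2 fold was 14.4 (95% interval 6.48 to 31.9; adjusted p = 0.000725), and the isoflurane difference was 4.41 as measured and 3.80 with the oil signals raised to the floor, a fold of 13.9. With normexp background correction the log2 differences were 2.37 under CO2-O2 and 2.29 under isoflurane.

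Liver transcripts were looked at beside Fgf21. Of 12 hepatocyte markers, 2 rose and 1 fell in the mean effect among 9 tested. Their summed level, in units of the array's 75th percentile, was 6.77 to 11.0 in BDCM and 7.94 to 10.8 in oil animals under CO2-O2, and 2.39 to 3.96 in BDCM and 1.97 to 5.51 in oil animals under isoflurane. The markers did not move together: Cyp2c11 had -2.71, -4.05 and -3.75 in BDCM and 1.71, 0.76 and 2.31 in oil animals under CO2-O2. Alb had 0.60, 1.19 and 1.49 in BDCM and 0.79, 1.66 and -1.44 in oil animals under CO2-O2. There Fgf21 was highest in BDCM animal 1, which had the least Alb of the BDCM animals. The defining marker Alb (albumin) had -0.69, -5.79 and -8.07 in BDCM animals and -6.28, -5.72 and -2.97 in oil animals under isoflurane. Fgf21 stood between the other 2 BDCM animals in BDCM animal 1, which had the most Alb, and was the highest of the oil animals in oil animal 3, which had the most Alb among them. The marker sums of BDCM and oil animals overlapped in both experiments, and their part in the Fgf21 result was not tested.

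Stc2, a secreted glycoprotein, had -4.02, -3.98 and -4.72 in BDCM animals and -6.46, -8.14 and -7.84 in oil animals under CO2-O2. Under isoflurane it had -3.02, -1.86 and -4.98 in BDCM animals and -6.21, -6.43 and -7.49 in oil animals. No oil array had Stc2 well above background, so its level there has only an upper bound: the lowest signal well above background on the same array, or the probe's own where higher. On that basis Stc2 was at least 4.48-fold higher in BDCM animals under CO2-O2 (adjusted p = 0.0122 in the fit of measured signals) and at least 6.36-fold higher under isoflurane (adjusted p = 0.00715). Since Stc2 was tested only through the BDCM groups where it is high, these p-values are no support for the difference. With normexp background correction the CO2-O2 effect of the measured signals did not pass (adjusted p = 0.115). The isoflurane bound was 3.88-fold without BDCM animal 2 and 11.4-fold without BDCM animal 3.

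The feedback and growth-control genes of the group did not move together. Ppp1r15a, the phosphatase subunit that restores eIF2 by removing its phosphate, had 1.06, 2.04 and 2.00 in BDCM animals and 0.70, 0.82 and 0.71 in oil animals under CO2-O2. Under isoflurane it had 0.76, 2.09 and 1.71 in BDCM animals and 0.62, 0.50 and 0.66 in oil animals. Neither experiment alone passed (adjusted p = 0.0657 under CO2-O2 and 0.0621 under isoflurane). BDCM animal 1 stood just above the oil animals in each experiment, and the mean effect of 0.94 ± 0.23 passed (adjusted p = 0.00939; 0.0864 with slide as a fixed block).

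Ddit4, an inhibitor of the growth kinase complex mTORC1, ran the other way. It had 1.86, 1.44 and 1.85 in BDCM animals and 2.60, 2.85 and 2.77 in oil animals under CO2-O2, and 1.48, 1.60 and 1.20 in BDCM animals and 1.38, 2.34 and 2.46 in oil animals under isoflurane. Under isoflurane oil animal 1 lay among the BDCM animals, and without it the isoflurane effect passed (adjusted p = 0.00408, against 0.0944 with it). The mean effect was -0.83 ± 0.18 (SE; adjusted p = 0.00493), and the 3 Ddit4 probes were all lower. Sesn2, which also restrains mTORC1, had a mean effect of -0.16 ± 0.14 (SE; adjusted p = 0.401).

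The chaperones formed a tighter group, each modestly higher after BDCM in the mean effect. In neither experiment alone did Hspa5, Pdia4 or Dnajb9 pass (adjusted p = 0.0783 to 0.419). Hspa5, the central ER chaperone BiP, had 5.72, 6.02 and 6.28 in BDCM animals and 5.60, 5.68 and 5.39 in oil animals under CO2-O2. Under isoflurane Hspa5 had 5.08, 5.93 and 5.51 in BDCM animals and 5.09, 5.05 and 5.25 in oil animals. The groups were apart under CO2-O2 and overlapped under isoflurane, where BDCM animal 1 was among the oil animals. The mean effect was 0.42 ± 0.14 (SE; fold 1.33, 95% interval 1.07 to 1.67), with an adjusted p of 0.0446 that 17 of 27 alternatives moved past the threshold, up to 0.316. Leaving out any 1 of 10 animals, that is all but BDCM animal 1 of each experiment, ended the call (adjusted p = 0.0574 to 0.0985).

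Sdf2l1, an ER protein that works with Dnajb11 to keep nascent proteins soluble, rose most among the chaperones. It had 3.38, 4.54 and 4.64 in BDCM animals and 2.73, 2.51 and 2.38 in oil animals under CO2-O2, and 2.76, 4.10 and 4.20 in BDCM animals and 2.00, 2.08 and 2.21 in oil animals under isoflurane. The groups were apart, with BDCM animal 1 between the oil animals and the other BDCM animals. The fold was 3.12 (95% interval 1.69 to 5.77) under CO2-O2 and 3.01 (1.63 to 5.56) under isoflurane. The CO2-O2 call ended without oil animal 2 or 3 or BDCM animal 2 or 3 of that experiment, and the isoflurane call without its BDCM animal 2 or 3 (adjusted p = 0.0517 to 0.0677).

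Creld2, an ER-resident disulfide isomerase-like protein, had 1.67, 2.61 and 3.09 in BDCM animals and 1.42, 1.16 and 1.10 in oil animals under CO2-O2, and 0.69, 1.85 and 1.97 in BDCM animals and 0.50, 0.48 and 0.93 in oil animals under isoflurane. Under isoflurane BDCM animal 1 lay within the oil range. The CO2-O2 effect passed (adjusted p = 0.0492) and the isoflurane effect did not (adjusted p = 0.127; 0.024 without isoflurane BDCM animal 1). The CO2-O2 call was ended by 17 of 28 alternatives. Leaving out any 1 of 10 animals, all but BDCM animal 1 of each experiment, was enough (adjusted p = 0.0505 to 0.165). The mean effect was 1.05 ± 0.27 (SE; adjusted p = 0.0126), and its adjusted p was 0.177 in the fit blocked by slide and 0.062 in the fit blocked by scan day.

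Hyou1, which exchanges nucleotide on BiP, had 3.77, 4.20 and 4.36 in BDCM animals and 3.06, 3.14 and 3.01 in oil animals under CO2-O2, and 3.37, 4.15 and 3.98 in BDCM animals and 2.82, 2.83 and 2.97 in oil animals under isoflurane. All BDCM animals were above all oil animals, and the mean effect of 1.00 ± 0.14 had an adjusted p of 0.000395. Pdia6, a disulfide isomerase, was close to it with folds of 1.85 (95% interval 1.41 to 2.43) under CO2-O2 and 1.96 (1.49 to 2.57) under isoflurane.

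Hsp90b1, the ER paralogue of cytosolic HSP90, averaged 4.45 ± 0.35 in BDCM and 3.55 ± 0.21 in oil animals under CO2-O2, and 3.86 ± 0.33 in BDCM and 3.10 ± 0.28 in oil animals under isoflurane (SD, n = 3 each). The lectin chaperones Calr and Canx, which hold glycoproteins during folding, had mean effects of 0.61 ± 0.11 and 0.37 ± 0.06 (SE). Canx animals within a group differed little: 2.66, 2.70 and 2.68 in BDCM and 2.36, 2.33 and 2.28 in oil animals under CO2-O2. The groups of all 3 genes were apart in both experiments. Leaving out single animals of the same experiment ended calls of each. Under CO2-O2 these were oil animal 1 or 3 or BDCM animal 2 or 3 for Hsp90b1, oil animal 3 for Calr, and oil animal 2 or 3 or BDCM animal 3 for Canx (adjusted p = 0.0507 to 0.0737). Under isoflurane they were oil animal 1 or 2 or BDCM animal 2 or 3 for Hsp90b1, and oil animal 2 or 3 or BDCM animal 2 or 3 for Calr (adjusted p = 0.0533 to 0.108).

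The remaining disulfide isomerases and the BiP co-chaperones gave small effects. Pdia3, the partner of the lectin chaperones, had a mean effect of 0.46 ± 0.10 and Pdia4 one of 0.51 ± 0.18 (SE; adjusted p = 0.00426 and 0.0487). The Pdia4 call was ended by 16 of 27 alternatives, with adjusted p up to 0.167, and leaving out any animal but BDCM animal 1 of each experiment was enough (adjusted p = 0.0568 to 0.106). Dnajb11 and Dnajb9, which bring substrates to BiP, had mean effects of 0.57 ± 0.11 and 0.41 ± 0.12 (SE; adjusted p = 0.00299 and 0.0196). With slide as a fixed block, adjusted p was 0.0703 for Dnajb11 and 0.147 for Dnajb9. The Dnajb11 call ended under CO2-O2 without oil animal 2 or 3 or BDCM animal 2 or 3, and under isoflurane without oil animal 1 or 2 or BDCM animal 2 or 3 (adjusted p = 0.0665 to 0.106).

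ER-associated degradation, which draws misfolded proteins back to the cytosol, held both one of the largest rises and a fall. Derl3, a derlin of the retrotranslocation channel that is abundant in secretory cells, had 2.80, 4.88 and 4.56 in BDCM animals and 0.63, 0.21 and -0.18 in oil animals under CO2-O2. Under isoflurane Derl3 had 1.85, 4.57 and 4.88 in BDCM animals and -0.73, -0.43 and -0.10 in oil animals. The groups were apart, and BDCM animal 1 was 1.92 below the mean of the other 2 under CO2-O2 and 2.88 below it under isoflurane. The fold was 14.5 (95% interval 4.54 to 46.5) under CO2-O2 and 18.2 (5.69 to 58.2) under isoflurane (adjusted p = 0.00644 and 0.00314). With slide as a fixed block the log2 effect was 4.66 under CO2-O2 (adjusted p = 0.0384) and 3.31 under isoflurane, where it did not pass (adjusted p = 0.114). Without BDCM animal 1 the log2 effect was 4.50 under CO2-O2, against 3.86, and 5.15 under isoflurane, against 4.19.

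Since Derl3 is abundant in plasma cells, their markers were read beside it. Of 9 plasma cell markers 6 had a probe, 3 were tested and 0 passed. Their summed level, in units of the array's 75th percentile, was 3.69 to 4.32 in BDCM and 3.68 to 4.45 in oil animals under CO2-O2, and 2.65 to 4.95 in BDCM and 4.27 to 4.48 in oil animals under isoflurane. Most of that sum was Sdc1, at 1.72, 1.90 and 1.56 in BDCM and 1.98, 1.98 and 1.62 in oil animals under CO2-O2. Under isoflurane Sdc1 was at 1.13, 1.48 and 2.13 in BDCM and 1.98, 1.98 and 1.95 in oil animals. The sum thus says little about the other markers, and the part of plasma cells in the Derl3 result was not tested. Pou2af1 was at -1.593, -0.899 and -0.477 in BDCM and -1.224, -1.493 and -0.998 in oil animals under CO2-O2. Under isoflurane it was at -1.301, -1.328 and -0.89 in BDCM and -1.208, -1.087 and -1.559 in oil animals. For Pou2af1 and Cd79b under CO2-O2, BDCM animals 2 and 3 lay above every oil animal. BDCM animal 1 was the lowest BDCM animal there, as for Derl3. Under isoflurane the lowest BDCM animal was animal 2 for Pou2af1 and animal 3 for Cd79b. Among the defining markers, Tnfrsf17 was not well above background on any BDCM array, and Mzb1 on no isoflurane array.

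Derl1, the related derlin, averaged 3.35 ± 0.09 in BDCM and 3.40 ± 0.08 in oil animals under CO2-O2, and 3.38 ± 0.03 in BDCM and 3.41 ± 0.03 in oil animals under isoflurane (SD, n = 3 each). Its mean effect of -0.04 ± 0.05 did not pass, and the 95% interval of the fold was 0.900 to 1.05. Herpud1, which organises the degradation complex, had 4.12, 4.30 and 4.48 in BDCM animals and 4.53, 4.65 and 4.60 in oil animals under CO2-O2, and 3.92, 4.20 and 4.06 in BDCM animals and 4.10, 4.70 and 4.70 in oil animals under isoflurane.

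Herpud1 was thus lower without overlap under CO2-O2 and overlapped under isoflurane through oil animal 1, and neither experiment alone passed (adjusted p = 0.233 under CO2-O2 and 0.0685 under isoflurane). Without isoflurane oil animal 1 the isoflurane effect passed (adjusted p = 0.00693). Its mean effect was -0.37 ± 0.11 (SE; adjusted p = 0.0275), and 8 of 27 alternatives ended the call, with adjusted p up to 0.112. Among them were leaving out CO2-O2 oil animal 2 or 3, isoflurane oil animal 2 or 3, or BDCM animal 1 of either experiment (adjusted p = 0.0538 to 0.0643). The ligase pair Sel1l and Syvn1 had mean effects of 0.19 ± 0.10 and 0.16 ± 0.06 (SE) and did not pass (adjusted p = 0.142 and 0.0611).

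The messenger RNAs of the 3 ER stress sensors did not pass the test in either experiment. Atf6 had a mean effect of 0.21 ± 0.12, Ern1 of -0.07 ± 0.15 and Eif2ak3 of 0.05 ± 0.09 (SE; adjusted p = 0.224, 0.751 and 0.719). The 95% interval of the fold was 0.951 to 1.40 for Atf6, 0.757 to 1.20 for Ern1 and 0.899 to 1.18 for Eif2ak3. Sensor activity, which is set by phosphorylation, cleavage and splicing, is not measured by these arrays.

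Xbp1, whose messenger RNA is spliced by IRE1 into the active form, had 2.48, 2.50 and 2.57 in BDCM animals and 2.79, 2.77 and 2.64 in oil animals under CO2-O2, and 2.31, 2.47 and 2.31 in BDCM animals and 2.55, 2.66 and 2.58 in oil animals under isoflurane. Every BDCM animal was below every oil animal of its experiment. The mean effect was -0.23 ± 0.05 (SE; fold 0.855, 95% interval 0.786 to 0.930; adjusted p = 0.00836), with 0.119 when slide was a fixed block. The isoflurane call (adjusted p = 0.047) was ended by 19 of 28 alternatives, and by leaving out any 1 of 11 animals, all but isoflurane BDCM animal 2 (adjusted p = 0.0541 to 0.142). Whether the Xbp1 probe separates the spliced from the unspliced form is not given in the sources used here.

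ATF4-type genes and chaperones were set side by side in each animal, as the median over each list of the difference from the mean of the oil animals of the same experiment. ATF4-type medians were 0.38, 1.30 and 1.25 in the BDCM animals under CO2-O2 and 0.32, 1.49 and 1.12 under isoflurane. Chaperone medians were 0.40, 0.80 and 0.99 in the BDCM animals under CO2-O2 and 0.29, 0.83 and 0.63 under isoflurane. In the 6 oil animals both medians lay between -0.08 and 0.09. The ATF4-type median exceeded the chaperone median by 0.26 to 0.66 in BDCM animals 2 and 3 of each experiment. In BDCM animal 1 it differed from the chaperone median by -0.02 and 0.03. The ATF4-type medians hold the dim Fgf21, and Stc2, which was tested only through its BDCM groups and had to differ. With both dropped, the list medians of the CO2-O2 effect were 0.52 for ATF4-type genes and 0.69 for chaperones. Their order thus turned there, and the gap per animal was not computed without these genes.

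**Figure D5:**
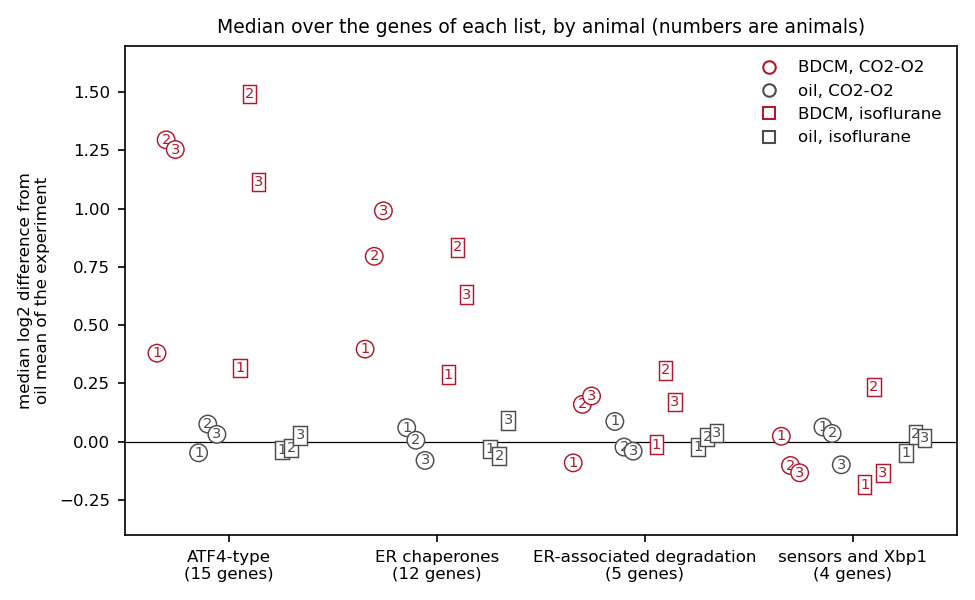
Median over the genes of each list (x axis) of the log2 difference from the oil mean of the experiment (y axis), 1 symbol per animal, numbered, BDCM in red and oil in grey, circles for CO2-O2 and squares for isoflurane. BDCM animals 2 and 3 lie at 1.12 to 1.49 for ATF4-type genes and at 0.63 to 0.99 for chaperones. BDCM animal 1 of each experiment lies at 0.29 to 0.40 for both, and oil animals lie near 0. The ATF4-type list holds Fgf21 and Stc2, which were dim in oil animals.

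BDCM animal 1 was the lowest of the 3 BDCM animals in both experiments for 18 of the 24 genes that rose, namely 10 of 12 chaperones, 7 of 11 ATF4-type genes and Derl3. Among all 6071 features that rose, 32.7% had animal 1 lowest in both. Atf5, Cebpg, Fgf21 and Stc2 were exceptions: animal 1 was not the lowest in either experiment, and its Atf5 signal differed from the mean of the other 2 BDCM animals by 0.01 under CO2-O2 and 0.10 under isoflurane. In slide terms BDCM animal 1 shared a slide with BDCM animal 3 under CO2-O2 and with BDCM animal 2 under isoflurane. Animal numbers follow the scanner file of each labelled sample. The deposited value table gives the signals of CO2-O2 BDCM animal 1 under number 3, and numbers do not tie animals of the 2 experiments to each other. Without BDCM animal 1 of the CO2-O2 experiment 21 genes rose under CO2-O2 (10.3% of all features), and without BDCM animal 1 of the isoflurane experiment 24 rose under isoflurane (13.3%).

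Other genes of the same pathways were read from lists outside the 38, where each count stands beside 17.7% of all features higher and 20.4% lower in the mean effect. Of 35 tested targets of ATF4 (40 listed) 22 rose and 2 fell in the mean effect, with a median log2 difference of 0.65. Pycr1, the last enzyme of proline synthesis, had log2 effects of 6.18 ± 0.28 under CO2-O2 and 6.53 ± 0.28 under isoflurane (SE), and the asparagine synthetase Asns 3.88 ± 0.20 and 4.15 ± 0.20. The glycine transporter Slc6a9 was 9.79-fold and the cystine-glutamate exchanger Slc7a11 9.74-fold higher in the mean effect.

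Of 49 tested genes of ER folding and translocation (56 listed) 35 rose and 2 fell, with a median of 0.42. Fkbp11, a peptidyl-prolyl isomerase of secretory cells, was 12.4-fold higher, and the oxidase Ero1b, the translocon subunit Sec61a1 and the calcium-binding Rcn1 were 2.41-fold, 2.34-fold and 2.26-fold higher. Of 18 other tested genes of ER-associated degradation (24 listed) 7 rose and 3 fell, with a median of 0.08, led by Aup1 at 1.52-fold. Edem2, Ube2j1 and Selenos followed at 1.49-fold, 1.43-fold and 1.40-fold.

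Of 27 tested eIF2 kinases and control genes of the response (29 listed) 10 rose and 4 fell, with a median of 0.08. Among those named, Dnajc3, an inhibitor of eIF2 kinases in the ER, was 2.24-fold and Casp12, an ER-associated caspase, 1.74-fold higher, and Creb3l3, an ER-bound factor of liver and gut, had a log2 difference of -1.07. Bcl2l11, a pro-apoptotic BH3 protein, was well above background on 3 of 3 BDCM and 2 of 3 oil arrays under CO2-O2. Under isoflurane it was so on 2 of 3 BDCM and 0 of 3 oil arrays, so no fold is given. The count of 10 holds Bcl2l11, which was kept only through the CO2-O2 BDCM group where it is high. Its call is thus no support. Of 11 tested genes of the mitochondrial unfolded protein response (12 listed) 3 rose and 1 fell, with a median of 0.04, beside the same 17.7% and 20.4% of all features. The protease Lonp1 was 1.94-fold, the chaperone Hspa9 1.57-fold and the protease Htra2 1.41-fold higher, and Clpx, another protease subunit, had a log2 difference of -0.30.

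Oil animals of the 2 experiments were compared to see the level from which each effect was measured. Pdia3 was lower in isoflurane than in CO2-O2 oil animals (log2 difference -0.49, adjusted p = 0.0457), and the other 35 genes did not pass, against 7.53% of features higher and 3.56% lower. Leaving out any oil animal, CO2-O2 BDCM animal 2 or isoflurane BDCM animal 3 ended the Pdia3 call (adjusted p = 0.0528 to 0.138). The median difference between oil groups was -0.32 over the 12 chaperones, -0.16 over the 15 ATF4-type genes and 0.05 over all features. Anaesthesia, experiment and slide cannot be told apart here.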

How the data were processed

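Renal cortex RNA of 12 rats was hybridised to 1-colour Agilent arrays, 3 animals in each of 4 groups. Each deposited scanner file gives an intensity per spot, read out by the authors with Feature Extraction of Agilent, version 10.7 by the submitters' processing notes. The deposited value table holds a ratio of each array's signal to its 75th percentile. Its 6 isoflurane columns equal their own scanner files and its 6 CO2-O2 columns equal another animal of the same group, so animals are numbered by their scanner files.

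From the scanner files, log2 of the processed signal minus the array's 75th percentile was computed for 61657 non-control probes, with 115 outlier spots set to missing and 84 spike-in probes left out. RefSeq accessions gave 1 symbol to 27460 of 33356 probes (RefSeq table of GRCr8), and the brightest probe stood for a gene. A feature was kept if every array of any group had it well above background (34218 of 49397). The linear model (1 mean per group, eBayes) was run in limma 3.58.1 under R 4.3.3 and p adjusted by Benjamini and Hochberg over all features, with an adjusted p of 0.05 as the threshold. All 36 genes with a probe passed the filter on background, Stc2 through its BDCM groups alone. Summaries used pandas 2.3.3 in Python 3.11.15, and figures matplotlib 3.10.9. The steps were tested on simulated data. The number of arrays limits the precision.

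The genes named are the 38 members, and up to 4 passing genes of each further list by size of change. The genes, roles, lists and tests were chosen with earlier results of these data known, so no test of a list is given. Alternatives changed scaling, background correction (normexp with an offset of 50 on median spot signals, since mean spot signals were not used here), filter, probe choice, model, blocks and threshold, and left out each animal in turn. The block with the value table's animal numbers was added after the data were seen.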

Additional observations from a re-analysis of the deposited data

How the results depend on the processing

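No called gene changed direction under any alternative run. Other thresholds aside, 2679 differences of single genes kept their side of the threshold, 215 lost the call, 53 gained it and 35 that were not called changed sign. Medians of ATF4-type genes ran from 0.80 to 1.13 (mean effect), 0.78 to 1.27 (CO2-O2) and 0.64 to 1.30 (isoflurane) when each animal was left out, and medians of chaperones from 0.54 to 0.66, 0.54 to 0.85 and 0.46 to 0.70. With only probes well above background on each of the 12 arrays, which drops Fgf21 and Stc2, the medians of ATF4-type genes and chaperones were 0.63 and 0.59 (mean), 0.52 and 0.69 (CO2-O2), and 0.73 and 0.56 (isoflurane), so their order turned under CO2-O2. With each animal left out, genes higher were 21 to 25 (mean), 10 to 21 (CO2-O2) and 12 to 24 (isoflurane), and genes lower 2 to 4, 0 to 2 and 0 to 2. The shares of all features were 15.7 to 18%, 6.8 to 11.3% and 9.11 to 13.5% higher. They were 17 to 20.4%, 4.6 to 11.3% and 6.81 to 13.2% lower. Slide as a fixed block gave 12 higher and 1 lower in the mean effect, 6 and 0 under CO2-O2, and 5 and 0 under isoflurane. It rests on 1 BDCM animal under CO2-O2 and 1 oil animal under isoflurane. Of all features called with it, 64.0% were higher under CO2-O2 and 69.8% under isoflurane, against 50.3 and 50.7% without it. Scan day as a fixed block gave 9 higher and 0 lower under CO2-O2 (7.16 and 4.83% of all features) and 0 lower under isoflurane (11.2%). With at least 2-fold required, 11 genes were higher and 0 lower (mean; 3.12 and 2.2% of all features). Under CO2-O2 10 were then higher (2.08%), and under isoflurane 8 higher and 0 lower (3.77 and 2.65%). At an adjusted p of 0.01, 9 were higher and 0 lower under CO2-O2 (5.46 and 2.87% of all features). Under isoflurane 10 were then higher and 0 lower (7.64 and 4.7%). Fitting each experiment alone gave 11 higher and 0 lower under isoflurane (9.62 and 8.18% of all features). Genes lower were 2 under CO2-O2 with normexp or a trend, 2 under isoflurane with quantile scaling, normexp or a trend, and 0 under isoflurane with median scaling, no filter or slide as a random block. In those fits 9.47 and 10.5% of all features were lower under CO2-O2, and 6.32 to 14.1% under isoflurane. The replicate block gave 0 lower under CO2-O2 with either numbering (6.1% of all features). Same-numbered animals showed no shared deviation (correlations of -0.01 to 0.05 under CO2-O2 and -0.02 to 0.05 under isoflurane). With 3 animals per group, these values do not settle whether animals were handled as pairs. In oil animals, genes lower were 0 to 2 with each animal left out, 2 with median scaling, 3 (and 1 higher) with array weights, and 0 with normexp, no filter, slide (fixed or random), scan day or replicate block (either numbering), 2-fold or an adjusted p of 0.01. In the same oil comparison 1.3 to 4.09% of all features were lower with each animal left out. The share was 7.62% with median scaling and 6.88% with array weights. Dim oil signals limit the size of the effects on Stc2, Fgf21 and the Chac1 probes. The cause of these changes was not tested.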
